A study of Arabidopsis thaliana with 30 samples.

Results

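SPL3 (AT2G33810), SPL4 (AT1G53160) and SPL5 (AT3G15270) are 3 members of the SQUAMOSA PROMOTER BINDING PROTEIN-LIKE (SPL) transcription factor family of Arabidopsis thaliana. They were taken by their gene identifiers, not by their values, and are 3 of the 25300 genes in the expression table. Levels were followed in whole 4-d-old seedlings of 5 genotypes in the Col-0 background, grown in continuous red light and collected after 2 d at 27 °C or at 21 °C, with 3 libraries in each of the 10 groups. The lines were MIM156, dcl1-24/hyl1-2, hyl1-2, pif457 and the wild type Col-0. MIM156 expresses a target mimic of miR156 from the 35S promoter, which is active in nearly all tissues. The hyl1-2 allele is a null mutation of HYL1, the RNA-binding partner of DCL1 in miRNA biogenesis, and dcl1-24/hyl1-2 carries in addition a dominant DCL1 allele from a mutagenesis screen for suppressors of hyl1-2. The pif457 line lacks the PHYTOCHROME INTERACTING FACTOR genes PIF4, PIF5 and PIF7. The labels number the libraries of a group but do not name separate cultures, so p-values measure only the spread between these libraries.

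miR156 is a plant miRNA that is abundant in young seedlings and declines as the shoot ages. It pairs with a short site in the mRNAs of most SPL genes, guides their cleavage and lowers their translation, and so holds back the change to adult growth and flowering. SPL3, SPL4 and SPL5 encode small SPL proteins that promote flowering, partly by activating meristem identity genes, and their miR156 site lies behind the stop codon. The larger targets, such as SPL9, carry the site within the coding sequence. A target mimic is a non-coding RNA, built on the IPS1 transcript, that binds the miRNA without being cut and keeps it from its targets.

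The miRNA and the sites it reads are shown first, because the mimic in MIM156 acts on this pairing. The hyl1-2 line is altered in miRNA biogenesis in general, not in miR156 alone. Mature miRNAs are from the RefSeq TAIR10.1 annotation, 5′ to 3′, with the seed (bases 2 to 8) in capitals. miR156a-5p is encoded at 6 loci, more than any other of these forms. Its seed GACAGAA is shared by miR156g, miR156h, miR156i, miR156j and miR157d, whereas miR157a-5p is 1 base longer at the 5′ end and has a seed that starts 1 base earlier.
miR156a-5p: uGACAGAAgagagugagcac
miR156i: uGACAGAAgagagagagcag
miR157a-5p: uUGACAGAagauagagagcac

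The best match to miR156a-5p in each gene's RefSeq transcripts is given below as mRNA, 5′ to 3′, with the bases opposite the seed in capitals. The SPL9 site stands for the coding sites, since SPL2, SPL6, SPL9, SPL10, SPL11, SPL13A, SPL13B and SPL15 share 1 sequence.
SPL3: uugcuuacucucUUCUGUCa
SPL4: cugcucucucucUUCUGUCa
SPL5: ccgcucucucucUUCUGUCa
SPL9: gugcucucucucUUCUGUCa

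The SPL3 site is at chr2:14305878-14305897 (plus strand, TAIR10.1), in the 3′ UTR of exon 2 of 2, and starts 50 bases after the stop codon. The SPL4 site is at chr1:19807090-19807109 (plus strand), in the 3′ UTR and 10 bases after the stop codon. The SPL5 site is at chr3:5140598-5140617 (minus strand), in the 3′ UTR and 7 bases after the stop codon. Against miR156a-5p the SPL3 site has 2 mismatches, of which 1 is a G:U pair, the SPL4 site 2 and the SPL5 site 3, and the 8 coding sites have 1 each. All of these sites pair with the seed without a mismatch. The best matches in SPL1, SPL7, SPL8, SPL12, SPL14 and SPL16, the 6 family members without a site, have 6 to 8 mismatches. The order is different against miR156i, which has 0 mismatches to the SPL4 site, 1 to the SPL5 site and 3 to the SPL3 site. The annotated MIR156I gene lies on the strand opposite SPL4, and mature miR156i is annotated at the same bases as the SPL4 site. Its 0 mismatches to that site therefore follow from position. Of the 3 annotated SPL4 transcripts, 1 contains the site and 2 do not, and the gene-level reads do not separate them.

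The annotated position of each gene also sets what its reads can mean. SPL3 (chr2:14305001-14306072) has 981 bp of exon, of which 97.3% is shared with AT2G33815, a long non-coding RNA gene on the other strand. Both rows held the same number of reads in 27 of 30 libraries and differed by at most 2 reads in the others. Reads of SPL3 and of its antisense gene therefore cannot be told apart in this table, and each SPL3 value below is a value of the locus. SPL4 (chr1:19806263-19807705) has 1365 bp of exon. SPL5 (chr3:5140365-5142323) has 1872 bp of exon, 25.5% of it shared with AT3G15260, a protein-coding gene on the other strand that was at 12.3 to 26.4 CPM in all libraries. From which gene the reads of these shared exons came cannot be told from this table either.

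Depth was 18.4 to 27.1 M reads a library, so that 1 read was worth 0.0369 to 0.0543 CPM (reads of a gene scaled to a fixed library total). SPL3 had 6 to 4571 reads in a library, SPL4 1 to 59 and SPL5 2 to 95. A count of 3 reads or fewer was met in 0 libraries for SPL3, in 1 for SPL4 and in 3 for SPL5. All 3 genes passed the filter of 1 CPM in 3 libraries, SPL3 with 26 libraries, SPL4 with 6 and SPL5 with 10. Outside MIM156 only 2 libraries passed this level for SPL4 and 4 for SPL5, all but 1 of these 6 being hyl1-2 libraries, so both entered the test through the groups in which they were high. In MIM156 the IPS1 transcript took 3.29% to 5.73% of all reads, and it was at no more than 9.4 CPM in any other library. In pif457, PIF5 and PIF7 were called lower than in Col-0 at both temperatures. PIF4 was called lower at 21 °C (−1.09, adjusted p = 0.00517), and at 27 °C it was at 51.8 to 56 CPM in pif457, against 79.1 to 112 CPM in Col-0, which was not called (−0.62, limma, adjusted p = 0.0834). Reads over HYL1 were at 12.7 to 18.3 CPM in the libraries labelled hyl1-2 at 27 °C, against 6.17 to 8.73 CPM in Col-0 at 27 °C, and at 2.01 to 3.5 CPM against 4.51 to 5.81 CPM at 21 °C. A gene-level count does not show where in HYL1 the reads fall, so it does not check the hyl1-2 labels, and directions drawn for these lines rest on the labels. Within groups, the most deviant libraries were replicate 3 of Col-0 and of MIM156 and replicate 2 of dcl1-24/hyl1-2, all at 21 °C, with an SD of 0.51 (log2) from the mean of the other 2 libraries of their group.

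**Figure D1:**
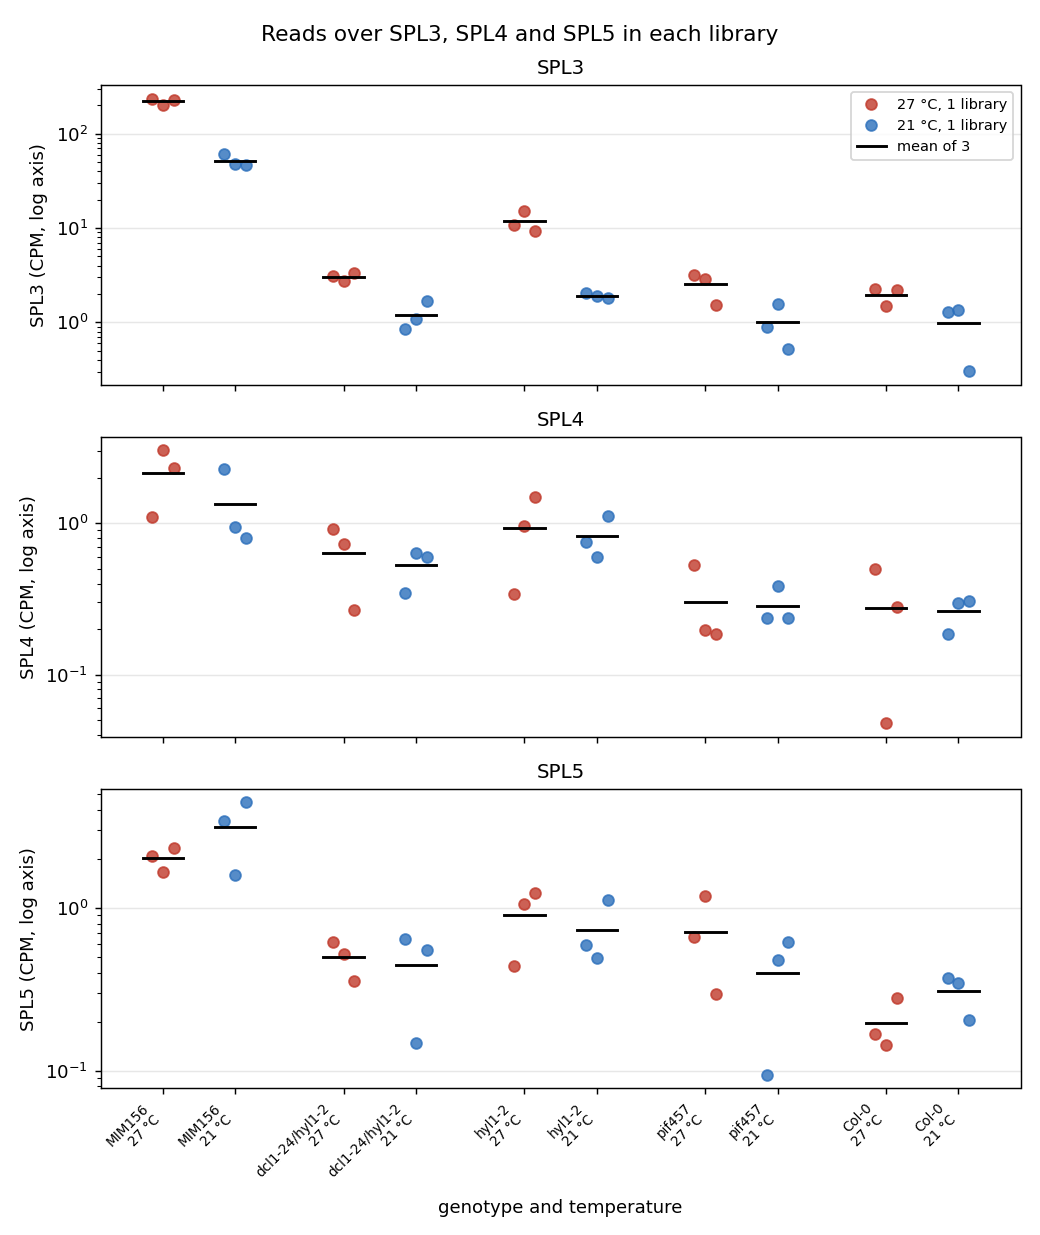
Level of SPL3, SPL4 and SPL5 in each of the 30 libraries, in CPM on a log axis, by genotype and temperature, with points for libraries and a line for the mean of 3. The MIM156 libraries lie between 203 and 236 CPM at 27 °C and between 46.7 and 61.1 CPM at 21 °C for SPL3, above all other groups, while SPL4 and SPL5 stay below 5 CPM in every library.

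In MIM156 seedlings the SPL3 locus was higher than in Col-0 by the largest margin seen among the 3 genes. SPL3 was at 236, 203 and 227 CPM in MIM156 at 27 °C, against 2.26, 1.49 and 2.18 CPM in Col-0 at 27 °C. At 21 °C it was at 61.1, 47.6 and 46.7 CPM in MIM156, against 1.3, 1.34 and 0.306 CPM in Col-0. The groups were far apart at both temperatures, and the low value of Col-0 replicate 3 at 21 °C rested on 6 reads. The mean was 222 ± 17.1 CPM in MIM156 and 1.97 ± 0.424 CPM in Col-0 at 27 °C (SD, n = 3 each), and among all 25300 genes SPL3 stood at rank 542 in MIM156 and rank 18527 in Col-0. On the scale of log2(CPM + 0.5), with CPM divided by a size factor for each library, the difference was 6.37 ± 0.30 (SE) at 27 °C (limma, adjusted p = 1.21e-15) and 5.25 ± 0.30 at 21 °C (adjusted p = 1.33e-13). These correspond to 82.5-fold and 38.1-fold on that scale, which understates the change of a gene near 1 CPM. In edgeR on the whole reads the folds were 105 and 52.1.

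SPL4 and SPL5 rose in MIM156 as well, to levels that stayed low. SPL4 was at 1.1, 3.04 and 2.34 CPM in MIM156 at 27 °C, against 0.501, 0.048 and 0.278 CPM in Col-0. At 21 °C it was at 2.28, 0.946 and 0.795 CPM in MIM156, against 0.186, 0.298 and 0.306 CPM in Col-0. All 6 MIM156 libraries exceeded all Col-0 libraries of their temperature, but the first MIM156 library at 21 °C was well above its 2 partners. The differences were 1.61 ± 0.34 at 27 °C (limma, adjusted p = 0.000663) and 1.23 ± 0.34 at 21 °C (adjusted p = 0.00705). Without replicate 1 of MIM156 the value at 21 °C was 0.91 and did not pass the threshold (adjusted p = 0.0681). SPL5 was at 2.09, 1.65 and 2.34 CPM in MIM156 at 27 °C, against 0.167, 0.144 and 0.278 CPM in Col-0, and at 3.39, 1.59 and 4.44 CPM in MIM156 at 21 °C, against 0.372, 0.347 and 0.204 CPM in Col-0. Here too the groups did not overlap. AT3G15260, which shares part of the SPL5 exons, was not called in MIM156 against Col-0, at 0.09 at 27 °C (adjusted p = 0.724) and 0.33 at 21 °C (adjusted p = 0.114). Means of that gene were 23.9 against 20.8 CPM at 27 °C and 20.9 against 16.2 CPM at 21 °C, far above SPL5. The part of shared reads in the SPL5 difference was not tested. The SPL5 differences were 1.70 ± 0.34 at 27 °C (adjusted p = 0.000363) and 2.15 ± 0.34 at 21 °C (adjusted p = 1.94e-05). Because both genes lie near the 0.5 CPM added before taking logarithms, the count model gives larger folds, with edgeR at 7.21-fold and 5.01-fold for SPL4 and 9.38-fold and 10.3-fold for SPL5 at 27 °C and 21 °C.

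All 3 genes were thus called higher in MIM156 at both temperatures, where 12.8% of 21780 tested genes were called higher at 27 °C and 13.2% at 21 °C. SPL4 reached 1 CPM in only 2 libraries outside MIM156, so the filter kept it for being high in MIM156. The count of 3 genes can therefore not be set against that share. The wider family moved in the same comparison. Of the other 8 SPL genes with a miR156 site, 7 were tested, SPL13B being too low, and 7 of 7 were higher at each temperature, with a median difference of 1.78 at 27 °C and 1.5 at 21 °C, against −0.01 for all tested genes at both. At 27 °C the largest of these were SPL9, a regulator of leaf initiation and phase change, at 2.13, SPL6 at 2.07 and SPL10 at 2.02. At 21 °C they were SPL9 at 2.63, SPL10 at 1.91 and SPL2 at 1.70. SPL13A and SPL13B are near-identical copies, and uniquely mapped reads may undercount both. Of the 6 SPL genes without a site, 2 were called higher at 27 °C (SPL1 and SPL14) and 3 at 21 °C (SPL1, SPL8 and SPL12), with medians of 0.31 and 0.26. Per length, SPL3 reached 226 CPM per kb of exon in MIM156 at 27 °C, above SPL1 at 46.3, SPL2 at 36.9, SPL4 at 1.58 and SPL5 at 1.08 CPM per kb. In Col-0 at 27 °C SPL3 was at 2.01 CPM per kb, below SPL1 at 32.4 and SPL2 at 9.88, and near SPL9 at 1.79. As a share of the 3 genes per length, SPL3 was 98.8% ± 0.4 in MIM156 and 87.6% ± 5 in Col-0 at 27 °C, and 95.3% ± 1.5 and 68.5% ± 17.5 at 21 °C (SD, n = 3 each).

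**Figure D2:**
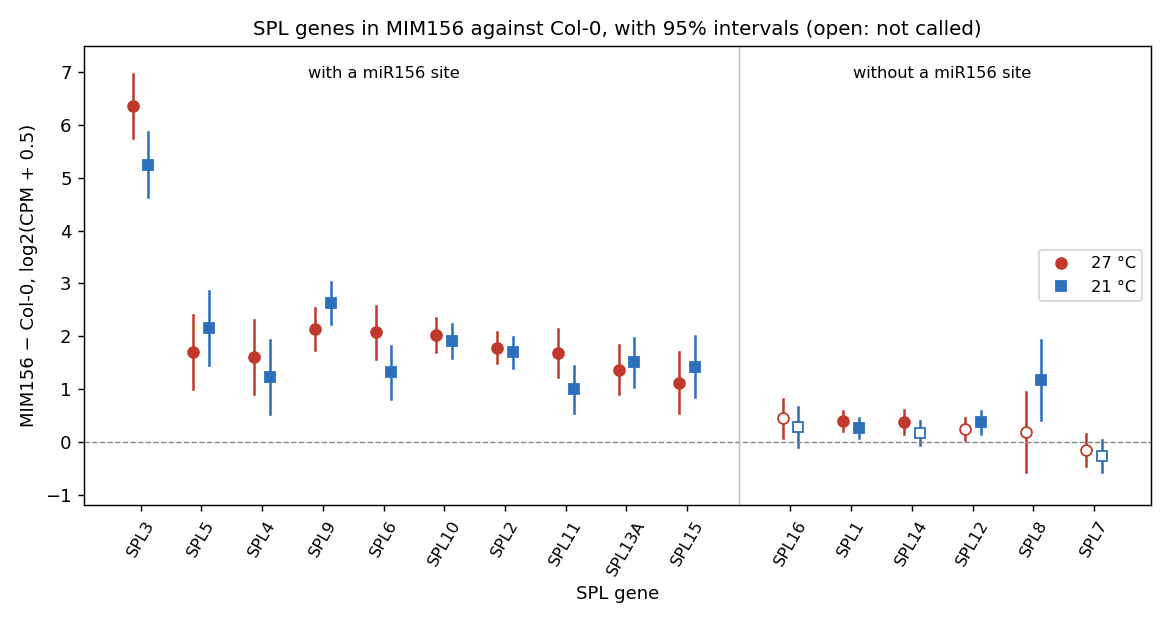
Difference of log2(scaled CPM + 0.5) between MIM156 and Col-0 for the 16 tested SPL genes at 27 °C (circles) and 21 °C (squares), with 95% intervals and open symbols where the adjusted p was 0.05 or more. SPL3 lies at 6.37 and 5.25, and the other genes with a miR156 site lie between 0.99 and 2.63.

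Among known partners downstream of or beside these genes, AP1, FT and CAL, which control flowering, were not analysed here, and only SOC1 and FD of the remaining 8 passed the filter. SOC1, a floral integrator, was at 5.64 to 6.61 CPM in MIM156 and 0.575 to 0.919 CPM in Col-0 at 27 °C, a difference of 2.25 (adjusted p = 9.42e-06), and it differed by 2.24 at 21 °C. FD, the bZIP partner of florigen, differed by 1.17 at 27 °C and 1.47 at 21 °C. SOC1 and FD were called higher at both temperatures, where 12.8% of all tested genes were at 27 °C and 13.2% at 21 °C. SOC1 lay under the 1 CPM of the filter in Col-0 at 27 °C. The filter could therefore keep listed genes for being high in MIM156, and this count does not describe the list. FUL and LFY, which SPL3 is known to activate, were at or below 0.468 CPM and 0.159 CPM in each MIM156 library. The 12 MIR156 and MIR157 precursor genes listed were likewise not analysed here.

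The warm-temperature comparison asked how the level of each gene in a genotype at 27 °C related to that at 21 °C. SPL3 was called higher in 3 of 5 genotypes, MIM156, hyl1-2 and pif457, and SPL4 and SPL5 in 0 of 5 by limma, edgeR and DESeq2 alike, with 1 unadjusted p under 0.05 (SPL5 in MIM156). In MIM156 the SPL3 level at 27 °C was 1.72 ± 0.30 above that at 21 °C (limma, log2, adjusted p = 0.000135), a 3.3-fold difference, and the libraries listed above did not overlap. In this comparison 8.57% of tested genes were called higher. In the libraries labelled hyl1-2, SPL3 was at 10.7, 15.3 and 9.24 CPM at 27 °C, against 2.04, 1.9 and 1.82 CPM at 21 °C, with the 27 °C libraries all above 9 and the 21 °C libraries close to each other. The difference was 2.07 ± 0.30 (adjusted p = 8.46e-06), or 4.21-fold on the log2(CPM + 0.5) scale, where 14.3% of tested genes were called higher. In pif457, SPL3 was at 3.19, 2.91 and 1.51 CPM at 27 °C, against 0.895, 1.58 and 0.52 CPM at 21 °C, so that the ranges overlapped. The difference of 1.02 ± 0.30 (adjusted p = 0.0163, with 8.27% of genes called higher) did not pass without pif457 replicate 3 at 21 °C (0.75), replicate 1 at 27 °C (0.85) or replicate 2 at 27 °C (0.93).

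In Col-0 itself the SPL3 values of 2.26, 1.49 and 2.18 CPM at 27 °C lay above the 1.3, 1.34 and 0.306 CPM at 21 °C. With size factors the ranges overlapped, as replicate 2 at 27 °C (1.36) lay below replicates 1 and 2 at 21 °C (1.54 and 1.59). The difference of 0.61 ± 0.30 was not called (95% interval −0.01 to 1.22, adjusted p = 0.17, with 8.54% of genes called higher). In dcl1-24/hyl1-2, SPL3 was at 3.07, 2.72 and 3.3 CPM at 27 °C, against 0.842, 1.09 and 1.7 CPM at 21 °C. These ranges did not overlap, yet the difference of 0.80 ± 0.30 was not called (interval 0.19 to 1.41, adjusted p = 0.0726, with 6.49% called higher). On the deposited totals, without size factors, both were called, at 0.82 in Col-0 (adjusted p = 0.0286) and 1.07 in dcl1-24/hyl1-2 (adjusted p = 0.00562). That choice raised the median of all genes by 0.27 in Col-0 and 0.32 in dcl1-24/hyl1-2. DESeq2 on whole reads called dcl1-24/hyl1-2 (0.99, adjusted p = 0.0233).

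For SPL4 the warm differences ran from −0.13 in hyl1-2 to 0.27 in MIM156, and the 95% intervals of the 5 genotypes lay within −0.83 and 0.96. For SPL5 they ran from −0.76 in MIM156 to 0.42 in pif457. SPL5 was at 2.09, 1.65 and 2.34 CPM at 27 °C, against 3.39, 1.59 and 4.44 CPM at 21 °C in MIM156, where the second 21 °C library fell below all 27 °C libraries. This difference of −0.76 ± 0.34 was not called (interval −1.46 to −0.07, adjusted p = 0.123), and without that library it was −1.15 (adjusted p = 0.0221).

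Of the other tested targets of miR156, 0 of 7 were called higher with warmth in MIM156 (median 0.11, with 8.57% of all tested genes called higher). In hyl1-2, 2 of 7 were, SPL2 and SPL9 (median 0.40, with 14.3% of all tested genes). In dcl1-24/hyl1-2, 2 of 7 were as well (median 0.19, with 6.49% of all tested genes). In Col-0 and pif457, 0 of 7 were (medians 0.13 and 0.06, with 8.54% and 8.27%). SPL11 was lower with warmth in Col-0, where 2108 of 21780 genes were called lower, and in hyl1-2, where 17.1% were. Seedlings are a mixture of tissues, and in these bulk samples more cells of one type and more RNA per cell cannot be told apart. The summed level of the shoot apical meristem markers STM, KNAT1 and CLV3 (3 of 4 in the table), in deposited CPM, was higher at 27 °C in 4 of 5 genotypes. It was at 33.2 to 40.5 CPM in MIM156 at 27 °C against 14.1 to 21.6 CPM at 21 °C. In dcl1-24/hyl1-2 it was at 45 to 63 CPM against 15.5 to 22.1 CPM. In hyl1-2 it was at 35.4 to 47.6 CPM against 12.1 to 21.6 CPM, and in Col-0 at 32.9 to 42.1 CPM against 15.4 to 19.4 CPM. In pif457, where SPL3 was called higher, that sum was 9.08 to 15.3 CPM at 27 °C and 12.6 to 17.2 CPM at 21 °C. With size factors, 2 of the 3 markers were tested, STM and KNAT1. For MIM156, 1 of 2 was called higher with warmth (limma, median difference 0.39). The count was 2 of 2 for dcl1-24/hyl1-2 (median 1.3), for hyl1-2 (1.18) and for Col-0 (0.92), and 0 of 2 for pif457 (−0.18). Without size factors, as in the sums, the warm median of all tested genes in MIM156 was 0.36, against 0.008 with them. CLV3 was listed at 0 in every 27 °C library of pif457 and of dcl1-24/hyl1-2, and WUS was not analysed here. The summed level of 4 markers of green cotyledons moved the other way, at 22690 to 25930 CPM in MIM156 at 27 °C against 39960 to 57380 CPM at 21 °C. Reads of chloroplast genes did so as well, at 1.67% to 3.81% in hyl1-2 at 27 °C against 5.28% to 13.1% at 21 °C. The part of these in the SPL3 result was not tested. Between MIM156 and Col-0 at 27 °C the ranges of the meristem sum overlapped, but of the 2 meristem markers tested STM was called lower (−1.39, limma, adjusted p = 0.00115) and KNAT1 was not (−0.11). The cotyledon sum was 22690 to 25930 CPM in MIM156 and 31980 to 37610 CPM in Col-0. The part of these in the MIM156 result was not tested.

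**Figure D3:**
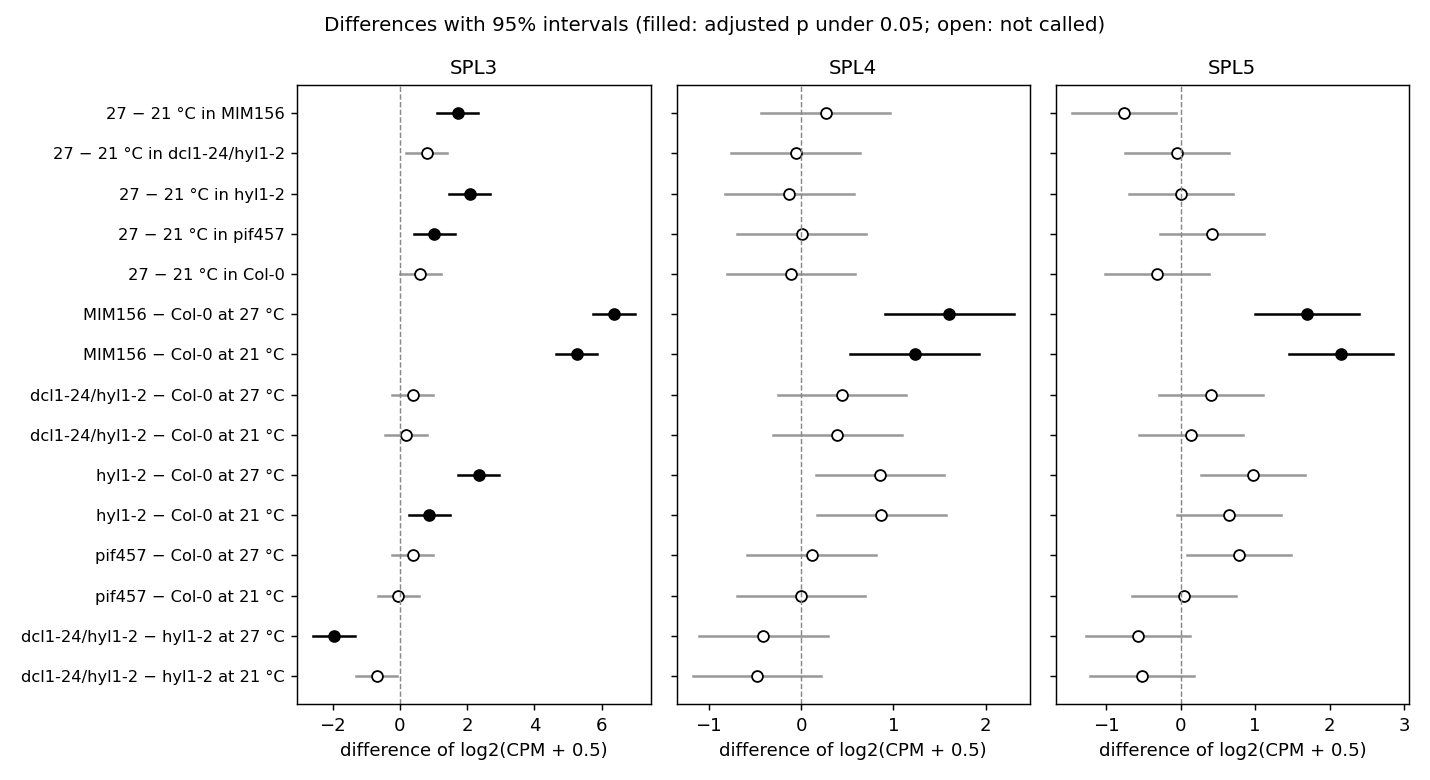
Differences of log2(scaled CPM + 0.5) for SPL3, SPL4 and SPL5 in the 5 warmth comparisons and the 10 genotype comparisons, with 95% intervals, filled where the adjusted p was under 0.05. SPL3 is filled in 8 of 15 comparisons, and SPL4 and SPL5 only in MIM156 against Col-0 at 27 °C and 21 °C. The panels have different horizontal scales.

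The hyl1-2 line was compared with Col-0 at each temperature, and no miRNA level entered the comparison. At 27 °C SPL3 was at 10.7, 15.3 and 9.24 CPM in the libraries labelled hyl1-2, against 2.26, 1.49 and 2.18 CPM in Col-0, with no overlap. The difference was 2.34 ± 0.30 (limma, adjusted p = 4.47e-06), or 5.06-fold, in a comparison where 1.65% of genes were called higher. At 21 °C SPL3 was at 2.04, 1.9 and 1.82 CPM in hyl1-2, against 1.3, 1.34 and 0.306 CPM in Col-0, a difference of 0.87 ± 0.30 that passed the threshold (adjusted p = 0.0367, with 11.5% of genes called higher). This call was less stable. Without Col-0 replicate 3 at 21 °C the value was 0.42 (adjusted p = 0.283), edgeR gave 1.02 (adjusted p = 0.0829), and leaving out any single hyl1-2 library at 21 °C gave 0.81 to 0.91 without a call.

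SPL4 and SPL5 were not called in hyl1-2, and their intervals lay mostly above 0. SPL4 was at 0.342, 0.961 and 1.49 CPM in hyl1-2 at 27 °C, against 0.501, 0.048 and 0.278 CPM in Col-0, with 1 hyl1-2 library inside the Col-0 range (0.86, interval 0.16 to 1.55, adjusted p = 0.195). At 21 °C it was at 0.752, 0.597 and 1.12 CPM in hyl1-2, all above the 0.186, 0.298 and 0.306 CPM of Col-0 (0.87, interval 0.17 to 1.57, adjusted p = 0.0655). SPL5 was at 0.439, 1.05 and 1.23 CPM in hyl1-2 at 27 °C, against 0.167, 0.144 and 0.278 CPM in Col-0, again without overlap. Its difference of 0.98 (interval 0.28 to 1.67, adjusted p = 0.119) was not called in the limma fit, while edgeR called it at 2.26 (adjusted p = 0.0471) and DESeq2 at 2.29 (adjusted p = 0.0167). At 21 °C SPL5 was at 0.591, 0.489 and 1.12 CPM in hyl1-2, against 0.372, 0.347 and 0.204 CPM in Col-0 (0.65, interval −0.05 to 1.35, adjusted p = 0.171). Among the 7 other tested targets, 3 were called higher in hyl1-2 at 27 °C, SPL9 at 1.47, SPL6 at 1.14 and SPL10 at 0.68. Their median was 0.68 beside −0.01 for all genes, of which 1.65% were called higher. Of the 6 SPL genes without a site 0 were. At 21 °C 2 of the 7 were called higher (median 0.28) and 0 of the 6, where 11.5% of all tested genes were.

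Whether the warm response of each gene differed between genotypes was tested as an interaction. For SPL3 the response in hyl1-2 exceeded that in Col-0 by 1.47 ± 0.42 (limma, adjusted p = 0.0355), with responses of 2.07 in hyl1-2 and 0.61 in Col-0, in a comparison where 6.76% of genes were called. This call was close to the threshold: it was lost in edgeR (1.64, adjusted p = 0.0702), with a pseudocount of 0.1 (1.39, adjusted p = 0.135) and on leaving out 9 of the 12 libraries singly, of which Col-0 replicate 2 at 21 °C gave 1.23 (adjusted p = 0.107). The excess in MIM156 over Col-0 was 1.12 ± 0.42 (interval 0.25 to 1.98, adjusted p = 0.201, with 1.58% of genes called), and it was called, at 1.57 (adjusted p = 0.0343), without Col-0 replicate 3 at 21 °C. The excess was 0.42 in pif457 (adjusted p = 0.803, with 1.36% of genes called) and 0.20 in dcl1-24/hyl1-2 (adjusted p = 1, with 0% of genes called by limma, 0 by edgeR or DESeq2, and 964 genes at an unadjusted p under 0.05). SPL4 and SPL5 were called in 0 of 5 such tests each by limma, edgeR or DESeq2, with 0 unadjusted p under 0.05.

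The suppressor line dcl1-24/hyl1-2 was compared with hyl1-2 and with Col-0. The dcl1-24/hyl1-2 libraries at 27 °C held SPL3 at 3.07, 2.72 and 3.3 CPM, against 10.7, 15.3 and 9.24 CPM in hyl1-2, and the groups were well separated. The difference was −1.96 ± 0.30 (limma, adjusted p = 7.34e-05), a 3.89-fold lower level, where 3.38% of genes were called lower. At 21 °C SPL3 was at 0.842, 1.09 and 1.7 CPM in dcl1-24/hyl1-2, against 2.04, 1.9 and 1.82 CPM in hyl1-2, and the difference of −0.69 was not called (interval −1.30 to −0.08, adjusted p = 0.0808, with 15.8% called lower), although DESeq2 called it (−0.85, adjusted p = 0.0475). It also passed without dcl1-24/hyl1-2 replicate 3 at 21 °C (−0.86, adjusted p = 0.0469). The warm response of dcl1-24/hyl1-2 minus that of hyl1-2 was −1.27 ± 0.42, which missed the threshold (adjusted p = 0.0748, with 4.68% of genes called). With the replicate number as a block, the same value passed it (adjusted p = 0.0431), as did DESeq2 (−1.35, adjusted p = 0.0488). Against Col-0, SPL3 in dcl1-24/hyl1-2 differed by 0.38 at 27 °C (interval −0.23 to 0.99, adjusted p = 0.645, with 0.579% called higher) and by 0.18 at 21 °C (interval −0.43 to 0.79, adjusted p = 0.874, with 0.354% called higher).

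SPL4 and SPL5 were not called between dcl1-24/hyl1-2 and hyl1-2 or between dcl1-24/hyl1-2 and Col-0 at either temperature. At 27 °C dcl1-24/hyl1-2 held SPL4 at 0.922, 0.733 and 0.268 CPM, which lay within the range of hyl1-2 save 1 library. Its difference from hyl1-2 was −0.41 (interval −1.11 to 0.29). SPL5 was at 0.615, 0.517 and 0.357 CPM in the same libraries, and its difference from hyl1-2 was −0.57 (interval −1.26 to 0.13). Of the other tested targets, 2 of 7 were called lower in dcl1-24/hyl1-2 than in hyl1-2 at 27 °C, SPL9 and SPL10, with a median of −0.46. Of all tested genes 3.38% were called lower there, with a median of 0.006. At 21 °C 3 of 7 were called lower (median −0.37), where 15.8% of all tested genes were.

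In pif457 none of the 3 genes was called against Col-0 by limma at 27 °C or 21 °C, where 7.76% and 4.27% of genes were called higher, and SPL5 had an unadjusted p of 0.0297 at 27 °C. SPL5 was at 0.664, 1.18 and 0.295 CPM in pif457 at 27 °C, against 0.167, 0.144 and 0.278 CPM in Col-0, so that the lowest pif457 library was just above the highest Col-0 library. The difference was 0.78 (interval 0.08 to 1.48, adjusted p = 0.125), and edgeR (1.98, adjusted p = 0.0393) and DESeq2 (1.99, adjusted p = 0.0222) called it higher. SPL3 in pif457 differed from Col-0 by 0.37 at 27 °C (interval −0.24 to 0.99) and by −0.04 at 21 °C (interval −0.66 to 0.57). SPL4 differed by 0.12 at 27 °C and −0.002 at 21 °C, with intervals within −0.70 and 0.81.

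Across the 10 groups, the mean SPL3 level was highest in MIM156 at 27 °C (222 CPM), then in MIM156 at 21 °C (51.8 ± 8.07) and in hyl1-2 at 27 °C (11.8 ± 3.17), and the libraries of these 3 groups overlapped neither with each other nor with the next. There followed dcl1-24/hyl1-2 (3.03 ± 0.296), pif457 (2.54 ± 0.897) and Col-0 (1.97 ± 0.424) at 27 °C and hyl1-2 at 21 °C (1.92 ± 0.112), each overlapping with its neighbour. The lowest were dcl1-24/hyl1-2 (1.21 ± 0.441), pif457 (0.999 ± 0.537) and Col-0 (0.982 ± 0.586 CPM, SD, n = 3 each) at 21 °C, which overlapped with each other and lay, in the case of dcl1-24/hyl1-2, below hyl1-2 at 21 °C without overlap. For SPL3, 5 of 9 neighbouring groups overlapped, for SPL4 9 of 9 and for SPL5 8 of 9. SPL4 was highest in MIM156 at 27 °C (2.16 ± 0.984 CPM) and lowest in Col-0 at 21 °C (0.263 ± 0.0669 CPM). SPL5 was highest in MIM156 at 21 °C (3.14 ± 1.44 CPM) and lowest in Col-0 at 27 °C (0.196 ± 0.0718 CPM). The only SPL5 neighbours that did not overlap were MIM156 at 27 °C and hyl1-2 at 27 °C. These orders are of deposited CPM, and with size factors some neighbours changed places. SPL3 in hyl1-2 at 21 °C (mean 2.27) then lay above Col-0 at 27 °C (1.83). SPL4 was then lowest in Col-0 at 27 °C (0.252), below Col-0 at 21 °C (0.294).

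Over the 10 group means of log2(scaled CPM + 0.5), the Pearson correlation was 0.88 between SPL3 and SPL4, 0.86 between SPL3 and SPL5 and 0.87 between SPL4 and SPL5. Without the MIM156 groups these were 0.59, 0.64 and 0.78 over 8 means, and within groups, over deviations of the 30 libraries, they were 0.21, 0.29 and 0.27. The points share libraries and size factors, and the values are a description. Genes overlapping a member were left out of the rankings that follow, among them AT2G33815, whose reads were nearly those of SPL3. Of the rest, the gene whose group means were most like those of SPL3 was AT5G44255, an annotated pseudogene (r = 0.994). It was followed by AT1G44830 (0.978), AT1G49405 (0.976), IQD26 (0.975) and LAP6 (0.971). Over the 30 libraries these were AT4G19430 (0.956), SPL2 (0.946), AT5G27410 (0.943), LAP6 and AT3G22440 (0.936 each). For SPL4 the closest over group means were OSM34 (0.968), CSLA02 (0.959), AT2G06950 and SSP5 (0.951 each) and AT1G49350 (0.95), and over libraries OSM34 (0.817), AT4G36210 (0.81), AT4G36648 (0.802), SPL9 (0.796) and AT1G30730 (0.794). For SPL5 they were AT3G55700 (0.972), AT1G52855 (0.967), AT4G21970 (0.962), AT3G13175 (0.96) and AT1G10690 (0.955) over group means, and AT3G55700 (0.906), AT1G52855 (0.844), LRB1 (0.843), AT3G13175 (0.841) and ZIP5 (0.831) over libraries.

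Genes that are known to regulate SPL3, SPL4, SPL5 or MIR156, together with PHYB and the PIF genes, moved in part with the same comparisons. Of the 11 tested, 6 were lower and 1 was higher in MIM156 than in Col-0 at 27 °C (median −0.32), where 14.6% of all tested genes were called lower and 12.8% higher, among them PIF4 at −1.52, PIF7 at −1.09, and the DELLA repressor genes RGL1 at −0.81 and GAI at −0.80. With warmth, 6 of 11 were higher and 1 lower in hyl1-2 (median 0.41, against 14.3% and 17.1% of all tested genes), led by PIF4 at 3.03 and PIF5 at 1.54, and 4 of 11 were higher in Col-0 (median 0.16, against 8.54%). Of the 11 floral repressors tested, 2 were higher and 4 lower in MIM156 than in Col-0 at 27 °C (median 0.05), with SNZ, an AP2-type repressor, at −3.63, and SMZ at −1.58. Of 12 miRNA processing and effector genes, 2 were higher in hyl1-2 than in Col-0 at 27 °C, HYL1 at 1.08 and DCL1 at 0.73, where 1.65% of all tested genes were called higher, and 1 was higher in MIM156.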

How the data were processed

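Poly(A) RNA of 30 seedling libraries had been sequenced as paired ends. Per the labels and methods, the authors aligned with STAR 2.7.7a, assigned uniquely mapped pairs to Araport11 genes in featureCounts 2.0.1, and ran DESeq2 1.35.0. For strandedness, nothing was given in the sources used here. The authors deposited a sheet with the name FPKM, but its values are CPM: libraries sum to 999904.2 to 999960.4, and 100% of values are whole multiples of 1 step (tolerance 0.001), which gave whole reads. The log-scale test had been fixed for a normalized unit and was kept. A sheet that held sample names only was not used.

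CPM were divided by median-of-ratios size factors (0.81 to 1.276, over 21062 genes). limma 3.58.1 (trend, robust) was fitted to log2(CPM + 0.5) with 1 mean per group over all 30 libraries, for 21780 genes at 1 CPM or more in 3 or more libraries. All 20 contrasts were adjusted by Benjamini-Hochberg over these genes, with calls at adjusted p under 0.05. CPM printed per library are as deposited. Intervals are 95% and cover the spread between libraries. Alternatives were deposited totals, a pseudocount of 0.1, no filter, a filter of 5 CPM, a replicate block, edgeR 4.0.16 and DESeq2 1.42.0 on whole reads (edgeR called 5896 genes in MIM156 against Col-0 at 27 °C and 5853 at 21 °C), and each library left out. 1 further alternative, without the 3 most deviant libraries, was chosen after seeing the data. The code was tested on simulated data.

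Same-numbered libraries deviated together, with every correlation over 0.1, in 7 of 15 comparisons of 2 groups (range −0.07 to 0.56). No label says what a number shares.

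The members, lists and tests were chosen with earlier results of these data known. Named genes were the members, genes overlapping them, those the genotypes name, IPS1, up to 4 of a counted list (called genes with the largest change first), and the 5 most correlated with each member over group means and over libraries. Genes overlapping the member were left out of these correlations. Further SPL genes named by a call were chosen after their values were seen. Of 96 listed genes, 17 were not analysed here. Annotation and sequences are from RefSeq TAIR10.1, to which 25076 of the 25300 identifiers matched. The table itself carries no coordinates.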

Additional observations from a re-analysis of the deposited data

Results flagged for a closer look

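The warm response of SPL3 differed between hyl1-2 and Col-0 by a test of the difference itself. It was 2.07 in hyl1-2 and 0.61 in Col-0 on the log2 scale, a difference of 1.47 ± 0.42 (limma, adjusted p = 0.0355). All 3 hyl1-2 libraries at 27 °C lay above all at 21 °C. In Col-0 this held for deposited CPM only. With size factors, Col-0 replicate 2 at 27 °C (1.36) lay below replicates 1 and 2 at 21 °C (1.54 and 1.59). Over all settings tried, including each library left out, the difference lay between 1.23 and 1.92, and its adjusted p between 0.00202 and 0.135. The call was lost in edgeR (adjusted p = 0.0702), with a pseudocount of 0.1 (limma, adjusted p = 0.135) and on leaving out 9 of the 12 libraries singly. Single genes were not tested for an outlying sample within a group, since each group has 3 libraries.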

How the results depend on the processing

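Of 869 values under alternatives for the 60 results on SPL3, SPL4 and SPL5, 834 stayed on the side of the threshold given in the report, 35 crossed it, and 48 results crossed it under no alternative. The sign differed in 73 values, of 19 results, and 0 of these were called in either fit. The 48 include the MIM156 calls of SPL3 and SPL5 against Col-0 and the SPL3 calls at 27 °C for hyl1-2 against Col-0 and dcl1-24/hyl1-2 against hyl1-2. The filter of 5 CPM gave values for SPL3 only. The cause of each change below was not tested. On deposited totals the SPL3 warm differences in Col-0 (0.82) and dcl1-24/hyl1-2 (1.07) were called. With a pseudocount of 0.1 the excess warm response of SPL3 in hyl1-2 over Col-0 (1.39) was not. With the replicate number as a block, the SPL3 warm response of dcl1-24/hyl1-2 minus hyl1-2 (−1.27) was called, and the block changed no other call of the 3 genes. In edgeR, SPL3 in hyl1-2 against Col-0 at 21 °C (1.02) and its excess warm response (1.64) were not called, and SPL5 at 27 °C was called in pif457 (1.98) and hyl1-2 (2.26). DESeq2 called SPL5 in the same comparisons (1.99 and 2.29), the SPL3 warm difference in dcl1-24/hyl1-2 (0.99), SPL3 in dcl1-24/hyl1-2 against hyl1-2 at 21 °C (−0.85) and the difference of their warm responses (−1.35). Without the 3 most deviant libraries, a setting chosen after seeing the data, SPL3 in hyl1-2 against Col-0 at 21 °C was 0.42 and not called.

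With each library left out in turn, SPL3 ranged over 0.418 to 1.105 in hyl1-2 against Col-0 at 21 °C, −0.86 to −0.52 in dcl1-24/hyl1-2 against hyl1-2 at 21 °C, 0.75 to 1.31 for warmth in pif457, 0.64 to 0.98 for warmth in dcl1-24/hyl1-2, 1.23 to 1.92 for the excess warm response in hyl1-2 and 0.88 to 1.57 for that in MIM156. The warm difference in dcl1-24/hyl1-2 was called without its replicate 3 at 21 °C. SPL4 ranged over 0.91 to 1.39 in MIM156 against Col-0 at 21 °C, and SPL5 over −1.15 to −0.43 for warmth in MIM156.

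Counts of genes called over all 21780 depended more on the setting. On deposited totals, higher and lower calls with warmth were 5458 and 1008 in Col-0 (1860 and 2108 with size factors), 6936 and 1904 in hyl1-2 (3118 and 3715), 5945 and 716 in dcl1-24/hyl1-2 (1414 and 1720) and 7454 and 772 in MIM156 (1867 and 2123). Against Col-0 they were 921 and 2835 in pif457 at 27 °C (1690 and 1855), 1415 and 543 at 21 °C (929 and 1334), 1748 and 2479 in hyl1-2 at 21 °C (2502 and 2226), at 27 °C 245 and 206 in dcl1-24/hyl1-2 (126 and 314), at 21 °C 108 and 76 (77 and 168), and 3554 and 2272 in MIM156 at 27 °C (2793 and 3179). For dcl1-24/hyl1-2 against hyl1-2 they were 2205 and 333 at 27 °C (611 and 736), and 4921 and 1939 at 21 °C (3028 and 3446). The excess warm response of hyl1-2 had 1472 calls, 940 on deposited totals, 2653 with the block, 3135 without the 3 most deviant libraries and 596 to 2348 with 1 library left out. That of MIM156 had 345, against 652 with the block, 574 in DESeq2, 179 without the 3 and 148 to 557 with 1 left out, and that of pif457 had 297, against 606 on deposited totals, 546, 519, 598 and 123 to 419. The dcl1-24/hyl1-2 minus hyl1-2 response had 1020, against 2235 with the block and 362 to 2293 with 1 left out. Calls in dcl1-24/hyl1-2 against Col-0 were 440 at 27 °C (737 with the block, 685 in DESeq2) and 245 at 21 °C (428, 391, and 625 without the 3). SPL4 and SPL5 rest on 1 to 95 reads a library, which limits what their comparisons could show.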
